A study of Arabidopsis thaliana with 8 samples.

Results

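The ERF and DREB transcription factor genes of Arabidopsis thaliana were examined for binding by URI, also called bHLH121, a basic helix-loop-helix transcription factor that acts in the response to low iron (Fe). The members are the nuclear protein-coding genes whose symbol is ERF plus a number, DREB with any ending, CBF1 to CBF4, or RAP2 plus a number. This gave 41 of 27444 genes, after 3 genes for polypeptide release factors that carry a similar symbol (ERF1-1, ERF1-2 and ERF1-3) were left out. A URI peak was assigned to every member that it overlapped or that lay at most 1500 bp from it. By this rule 14 members had a peak, and 18 of the 2366 URI peaks lay near a member.

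Proteins of this family bind DNA through the AP2 domain. The ERF branch is known for binding the GCC box of ethylene- and defence-responsive promoters, and the DREB branch, with the CBF proteins, for binding the dehydration-responsive element of cold- and drought-responsive promoters. In Arabidopsis roots ethylene promotes the Fe-deficiency response, and ERF4 has been described as a repressor of that response. ERF proteins of the class called group VIII carry a repression motif, those of group VII are degraded when oxygen is present, and many of group IX are activators induced by ethylene, jasmonate or pathogens.

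Root chromatin bound by URI was precipitated with an antibody and sequenced (ChIP-seq). The plants were uri mutants carrying a complementing URI gene, and were held for 72 h on either sufficient or deficient Fe. Each Fe condition has 3 URI libraries and 1 IgG control library. The promoter and tag of the complementing gene, the number of lines, the age of the plants and whether the 3 libraries came from separate plantings do not appear in the sources used here, so p-values may measure technical spread. All plants carry the uri mutation and the complementing gene, and no line without URI is among the groups. Roots were used whole, so fewer cells with bound URI and less binding per cell cannot be told apart.

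The values are from 1 deposited table of peaks, which gives a mean concentration per Fe condition (read here as log2 of normalised reads), a change with its p-value, and an FDR (the false discovery rate). It has no value per library and none for the IgG controls, so no control level can be set beside the reads. Reads below are 2 to the power of that concentration and are group means without a spread. Changes are Fe deficiency minus Fe sufficiency on the log2 scale. Intervals (95%) of a change were computed here by a normal approximation from the deposited p-value. The depth of the libraries is unknown. Peak positions refer to TAIR10; the sources used here do not say if starts count from 0 or 1.

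URI peaks were found near members of most ERF and DREB classes but not near all of them. The share with a peak was 34.1% (14 of 41), beside 11.8% of all protein-coding genes. All 4 DREB1/CBF genes had a peak, as did 4 of 9 group IX genes, 2 of 4 group VII genes, 2 of 8 group VIII genes and 2 of the 13 other members, while 0 of the 3 DREB2 genes had one. These counts cover only members by symbol and not the whole classes. ERF105, for example, belongs to group IX but fits the naming rule only by a synonym, and it had no peak. ERF4, DREB1A, CBF2 and ERF-1 had more than 1 peak, which is 4 of 41 members beside 1.38% of all protein-coding genes. In other families chosen by symbol in the same way, a peak lay near 33 of 67 WRKY genes (49.2%), 17 of 79 NAC genes (21.5%) and 15 of 115 MYB genes (13.0%). The median change of their peaks was -0.565, -0.38 and -0.34. These shares and medians were not tested against each other.

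**Figure D1:**
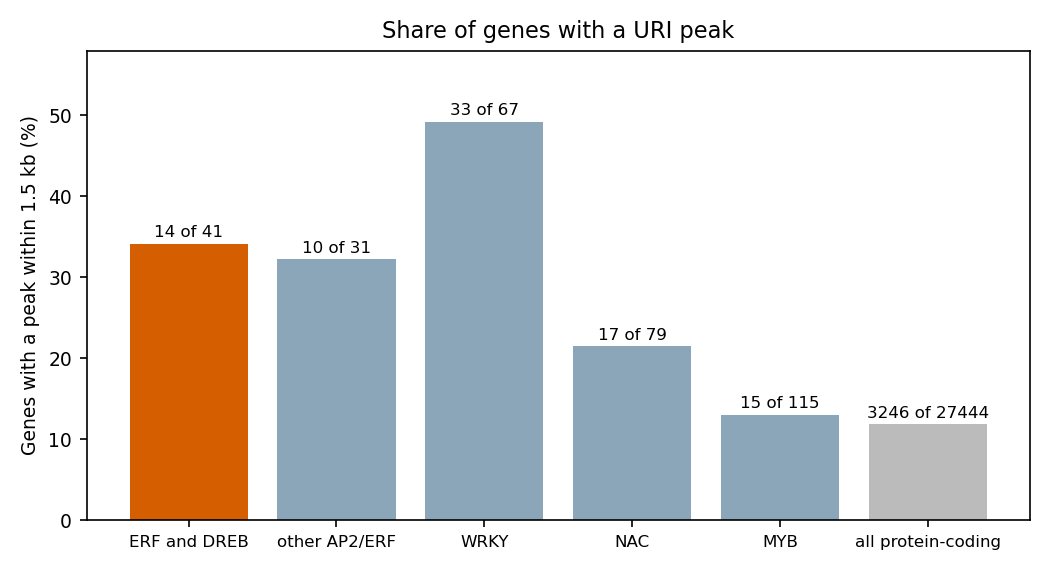
Bars give the percentage of genes of each family with a URI peak within 1500 bp (vertical axis, from 0), with the number of genes above each bar. The ERF and DREB bar, at 14 of 41 genes, lies between those of the NAC and WRKY families and above that of all protein-coding genes.

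Members had more intergenic space around them than genes in general, with a median of 4395 bp summed over both flanks against 1856 bp for all protein-coding genes. Among all genes with flanks of at least 4395 bp 13.7% had a peak, and among those with less 11.3% had one. Of the members, 7 of 21 with at least that much space and 7 of 20 with less had a peak. Among the latter 7 are CBF2, DREB1A and CBF1, which lie in tandem and in part share peaks. RAP2.12 and RAP2.2, whose peaks lay closer to another gene, are also among them. This split was not tested.

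ERF4, the group VIII repressor, held by far the most URI signal of any member. Its 3 peaks spanned 6875 bp from one side of the gene to the other, and only 33 protein-coding genes had 3 or more peaks within 1500 bp. The main peak (chromosome 3, 5122419 to 5126173) was 3754 bp wide, the third widest of the 2366. It overlapped only the high-coordinate end of ERF4 and ran on towards AT3G15220, which also lay within 1500 bp of it. Its midpoint lay beyond the 1500 bp window of ERF4, although ERF4 was still the nearest gene. In the authors' deposited table it held 104.7 reads under Fe sufficiency and 72.0 under deficiency, and its mean concentration (6.46) ranked 18th among 2366.

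On the opposite side of ERF4, a second peak (chromosome 3, 5119298 to 5120459) lay 844 bp from the gene and closer to AT3G15200. It held 37.3 reads under Fe sufficiency and 45.2 under deficiency in the authors' deposited table. Per kb of peak it was the densest of the member peaks, with 35.6 reads per kb, and it ranked 31st overall on that scale, while the main ERF4 peak had 23.4 reads per kb. The third peak, with its midpoint inside ERF4 (5120998 to 5121700), was weak, with 10.7 reads under Fe sufficiency and 12.0 under deficiency in the authors' deposited table.

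The ERF4 peaks did not share a direction. In the authors' deposited table the main peak was lower under Fe deficiency by a log2 change of -0.54 (p = 0.0317, FDR 0.251, 95% interval -1.03 to -0.05), short of the 0.05 FDR threshold. The peak on the opposite flank had a change of 0.28 in the authors' deposited table (p = 0.419, FDR 0.578, interval -0.40 to 0.96) and the peak inside the gene one of 0.17 (p = 0.84, interval -0.81 to 1.15). The changes of the main and the opposite peak lay 0.82 apart, and this difference was not tested. The other group VIII gene with a peak was ERF11, which encodes an ERF repressor known to act on ethylene synthesis genes. Its peak (chromosome 1, 9956884 to 9957605) overlapped the gene and had the highest change among the member peaks in the authors' deposited table, 0.59 (8.0 reads under Fe sufficiency and 12.0 under deficiency, p = 0.329). Its interval, from -0.59 to 1.77, reached higher than that of any other member peak. The group VIII genes ERF3, ERF7, ERF8, ERF9, ERF10 and ERF12 had no peak.

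**Figure D2:**
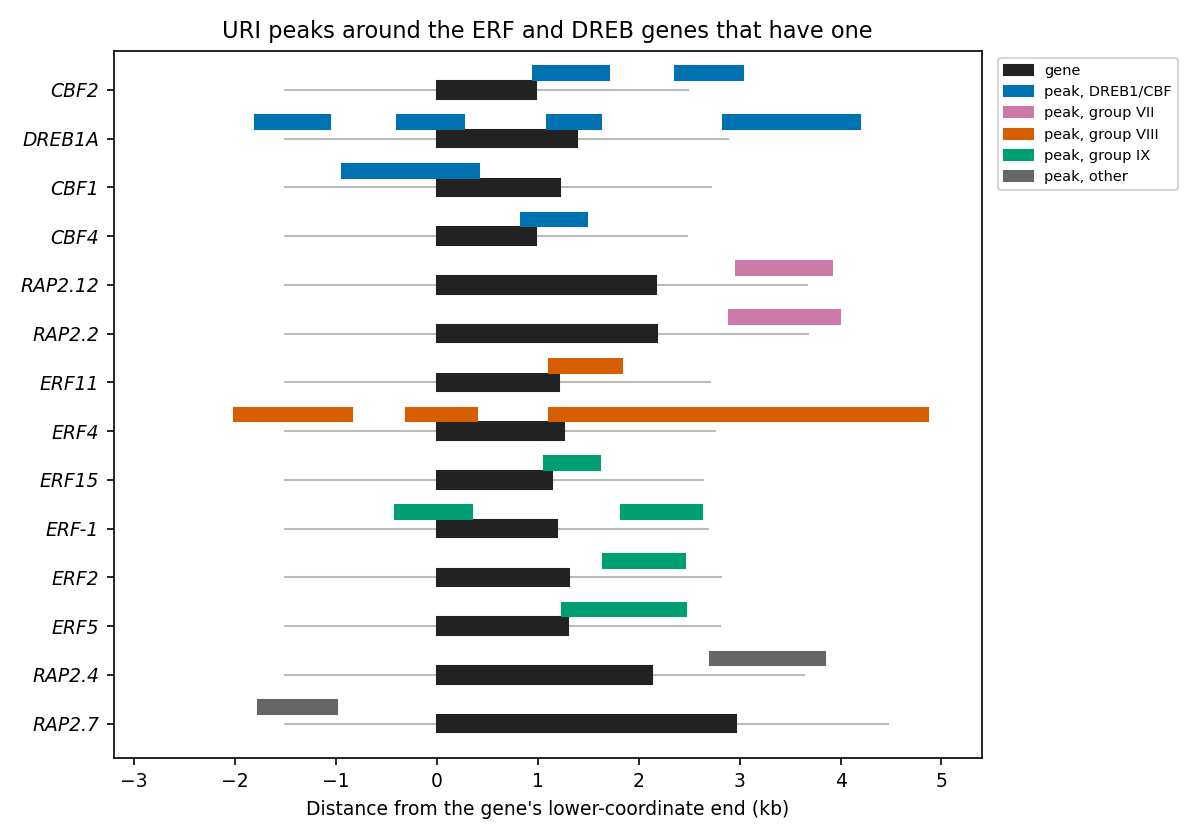
Each row is 1 of the 14 genes with a peak. The horizontal axis is the distance in kb from the gene's end with the lower coordinate, the black box is the gene, the grey line adds the 1500 bp window at each end and the coloured boxes are URI peaks, which are drawn once for each gene they lie near. Peaks lie at gene ends and in flanks in nearly every row, and the main ERF4 peak is far wider than the others. Gene strand is not used here.

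The CBF genes are the cold-induced activators of the DREB1 class, and CBF1, DREB1A (also called CBF3) and CBF2 lie in tandem on chromosome 4. This cluster of 3 genes carried 4 URI peaks over 5996 bp, all close to a CBF gene and with no other protein-coding gene within 1500 bp. All 4 peaks lay within 1500 bp of DREB1A, and only 3 protein-coding genes had 4 or more peaks. Because CBF2 and CBF1 share peaks with DREB1A, these genes do not count as independent bound genes.

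The strongest peak of the cluster overlapped CBF1 (chromosome 4, 13020845 to 13022203), with 21.1 reads under Fe sufficiency and 17.0 under deficiency in the authors' deposited table. The peak that overlapped the low-coordinate end of DREB1A (13017614 to 13018280) held 16.3 and 10.1 reads, and the peak at the other end of that gene (13019104 to 13019633) held 11.1 and 7.89 in the authors' deposited table. The peak at CBF2 (13016207 to 13016955) held 14.9 and 7.73 reads in the authors' deposited table. The median over all peaks was 12.2 reads as a mean of both conditions. By that mean CBF1 (19.0) and the stronger DREB1A peak (13.2) lay above it. CBF2 (11.3) and the weaker DREB1A peak (9.51) lay below it. All 4 had lower values under deficiency, as had 79.8% of all peaks. Relative to the median peak, which had a change of -0.46, CBF1 stood at 0.15 and CBF2 at -0.49. On that scale the stronger DREB1A peak stood at -0.24 and the weaker at -0.03.

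Of the 5 DREB1/CBF peaks, only 2 entered the deposited FDR adjustment, the stronger DREB1A peak (FDR 0.382) and CBF1 (FDR 0.569). Neither met the threshold of 0.05. The CBF2, weaker DREB1A and CBF4 peaks did not enter it. Adjusted here over all peaks, their FDR was 0.392, 0.573 and 0.759. In the authors' deposited table the changes in the cluster were -0.95 for CBF2 (p = 0.0615, interval -1.95 to 0.05), -0.70 and -0.49 for the pair of peaks at DREB1A (p = 0.165 and p = 0.335) and -0.31 for CBF1 (p = 0.408). CBF4, a drought-induced relative on chromosome 5, had 1 peak (21117708 to 21118362) that overlapped the gene, with 11.2 reads under Fe sufficiency and 9.58 under deficiency in the authors' deposited table (change -0.22, p = 0.611). IMPA-8 and AT5G51980 also lay within 1500 bp of that peak. The DREB2 genes DREB2A, DREB2B and DREB2C, which encode activators of drought and heat genes, had no peak by this rule. DREB19 and DREB26 had none either.

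Group IX, the class of ethylene- and jasmonate-induced ERF genes, had peaks at ERF-1, ERF2, ERF5 and ERF15, and all 5 of these peaks had lower values under Fe deficiency, beside the 79.8% of all peaks that did. ERF-1 (AT4G17500, also called ERF1A), an activator of GCC-box genes, had 2. The peak in its flank (chromosome 4, 9761029 to 9761831), 638 bp from the gene, held 16.6 reads under Fe sufficiency and 5.54 under deficiency in the authors' deposited table. That 2.99-fold lower value, a log2 change of -1.58 (interval -2.64 to -0.52), ranked 9th among the lowest changes of all 2366 peaks, and its p of 0.00356 in the authors' deposited table was the smallest of the member peaks. The peak was too weak to enter the deposited FDR adjustment, and adjusted here over all peaks its FDR was 0.177. The peak over the opposite end of ERF-1 (9758789 to 9759553) held 14.6 reads under Fe sufficiency and 8.40 under deficiency, a change of -0.80 in the authors' deposited table (p = 0.143, FDR 0.373).

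ERF2, another GCC-box activator, had its peak 330 bp from the gene (chromosome 5, 19173286 to 19174101), and had 16.6 reads under Fe sufficiency and 9.25 under deficiency in the authors' deposited table (change -0.84, p = 0.0697, FDR 0.317). ERF5, a regulator of chitin and osmotic stress responses, is the next ERF gene along chromosome 5 and had a peak of its own (19181125 to 19182348). It held 22.0 and 15.3 reads in the authors' deposited table (change -0.52, p = 0.21, FDR 0.42), and NUDT8 and AT5G47229 also lay within 1500 bp of it. The peak of ERF15 (chromosome 2, 13307495 to 13308047), a gene linked to abscisic acid responses, was the weakest of the member peaks, with 11.2 and 7.62 reads in the authors' deposited table (change -0.55, p = 0.275). The group IX genes ERF1, which joins ethylene and jasmonate signals, ERF6, ERF13, ERF14 and ERF104 had no peak.

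**Figure D3:**
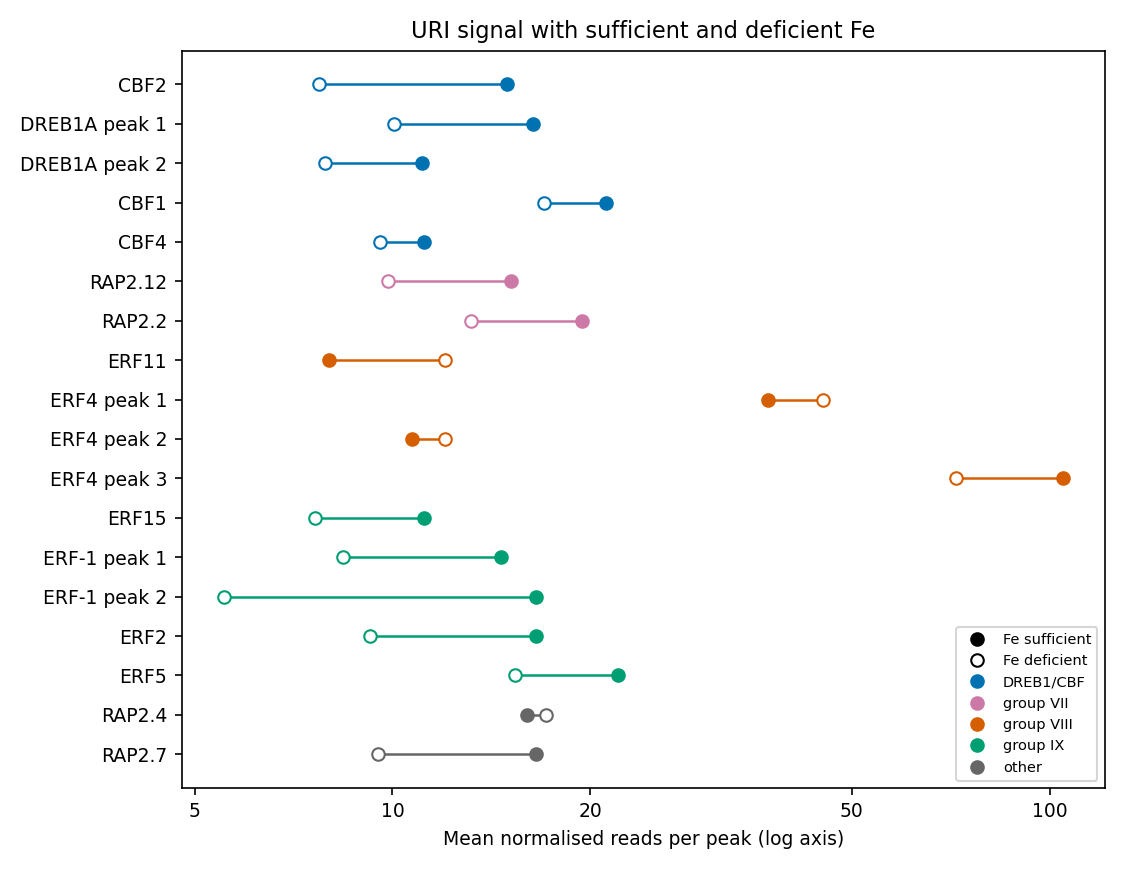
The horizontal axis is the authors' mean of normalised reads per peak on a log axis, with filled circles for sufficient Fe and open circles for deficient Fe. Each row is 1 of the 18 peaks, coloured by gene class. Open circles lie to the left of filled ones in 14 rows, and the main ERF4 peak (peak 3) and the peak on its opposite flank (peak 1) stand well to the right of all others.

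The group VII genes RAP2.12 and RAP2.2, whose proteins activate hypoxia genes when oxygen is low, each had a peak in a flank, and in both cases another gene was closer to it. The RAP2.12 peak (chromosome 1, 20137805 to 20138762) lay 792 bp from that gene with its midpoint inside GLIP5, a lipase gene, and held 15.1 reads under Fe sufficiency and 9.85 under deficiency in the authors' deposited table (change -0.62, p = 0.213, FDR 0.42). The RAP2.2 peak (chromosome 3, 4740015 to 4741111) lay 717 bp from the gene and nearest to AT3G14240, with 19.4 and 13.2 reads in the authors' deposited table (change -0.56, p = 0.162, FDR 0.382). The hypoxia-induced group VII genes ERF71 (HRE2) and ERF73 (HRE1) had no peak.

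Of the remaining members, RAP2.4 and RAP2.7 had a peak. RAP2.4 (AT1G78080, also named WIND1 for its part in wound-induced dedifferentiation) had one 568 bp from the gene (chromosome 1, 29366775 to 29367916), with no other gene within 1500 bp. Its 16.0 reads under Fe sufficiency and 17.1 under deficiency gave the smallest change of the member peaks in the authors' deposited table, 0.10 (p = 0.938, FDR 0.955, interval -0.74 to 0.94). RAP2.7, also called TOE1, is an AP2-type repressor of flowering and not an ERF or DREB protein in the narrow sense. Its peak (chromosome 2, 12223880 to 12224672) lay 984 bp away and nearer to AT2G28540, with 16.6 and 9.51 reads in the authors' deposited table (change -0.80, p = 0.0896, FDR 0.339). RAP2.1, RAP2.6, Rap2.6L, RAP2.9, RAP2.10, RAP2.11, ERF38, ERF53 and ERF110 had no peak.

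Seen together, 11 of the 18 member peaks overlapped a member and 7 did not, and a member was the nearest gene for 14. The midpoints of 3 lay inside a gene, namely in ERF4, DREB1A and GLIP5, beside 19.4% of the midpoints of all peaks. No share over all peaks is set beside the overlap and nearest-gene counts. Apart from ERF4, the reads of the member peaks were near those of all peaks. The median over the member peaks was 12.7 reads against 12.2 over all peaks, with 15.5 reads per kb against 16.6. The farthest member counted as having a peak was RAP2.7, 984 bp from it, and the nearest that was not counted was DREB26, at 1558 bp. Of the 27 members without a peak, ERF7, ERF8 and RAP2.9 were the others within 3000 bp of one, and the median distance was 10910 bp.

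Between the Fe conditions no member peak passed the test. Counting FDR values below 0.05 in the authors' deposited table (DiffBind is the tool named for it), 0 of the 11 member peaks that were adjusted there were higher under deficiency, beside 1.98% of all adjusted peaks, and 0 were lower, beside 0.0763%. Adjusted FDR values of members ran from 0.251 at ERF4 to 0.955 at RAP2.4. At an unadjusted p under 0.05 in the authors' deposited table, 2 of the 18 member peaks were lower (ERF4 and ERF-1), beside 10.1% of all peaks, and 0 were higher, beside 3.55% of all peaks. Both counts are near those shares. Only 1 fit with a p-value is deposited, and no other tool could be run without values per library.

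By direction alone, 14 of the 18 member peaks (77.8%) had lower values under deficiency, beside 79.8% of all peaks. The median change of the member peaks was -0.545, beside -0.46 over all peaks. The intervals of 16 of the 18 spanned 0. The median standard error of a change was 0.485 (log2), so a moderate change of a single member peak was not detectable in these libraries. For the main ERF4 peak, the most precisely measured member with a standard error of 0.251, the interval has no value above 0.

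**Figure D4:**
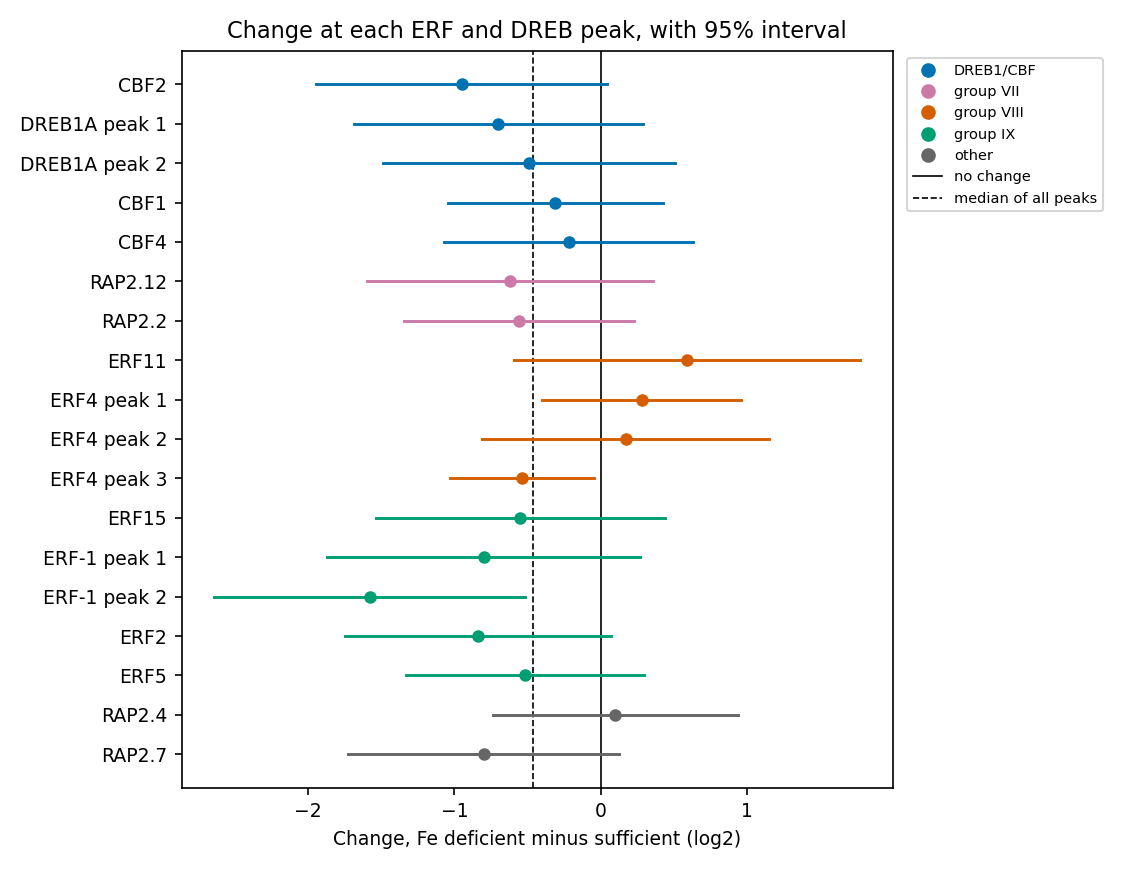
Points give the log2 change (Fe deficiency minus sufficiency) at each of the 18 peaks and lines the 95% interval implied by the deposited p-value, coloured by gene class. The solid vertical line marks no change and the dashed line the median of all peaks, -0.46. Only the intervals of ERF4 peak 3 and ERF-1 peak 2 lie wholly below 0, and none lies wholly above it.

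Taking changes relative to the median peak adds 0.46 to each and leaves their spread as it was. The median of the member peaks was then -0.085, with 6 peaks above and 12 below. The main ERF4 peak moved to -0.08 and the peak on its opposite flank to 0.74 (FDR 0.373), while the flank peak of ERF-1 stood at -1.12. CBF1 and CBF4 turned to 0.15 and 0.24. On this scale an FDR below 0.05 with a higher value was reached by 4.81% of all adjusted peaks and by 0 of the 11 member peaks.

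**Figure D5:**
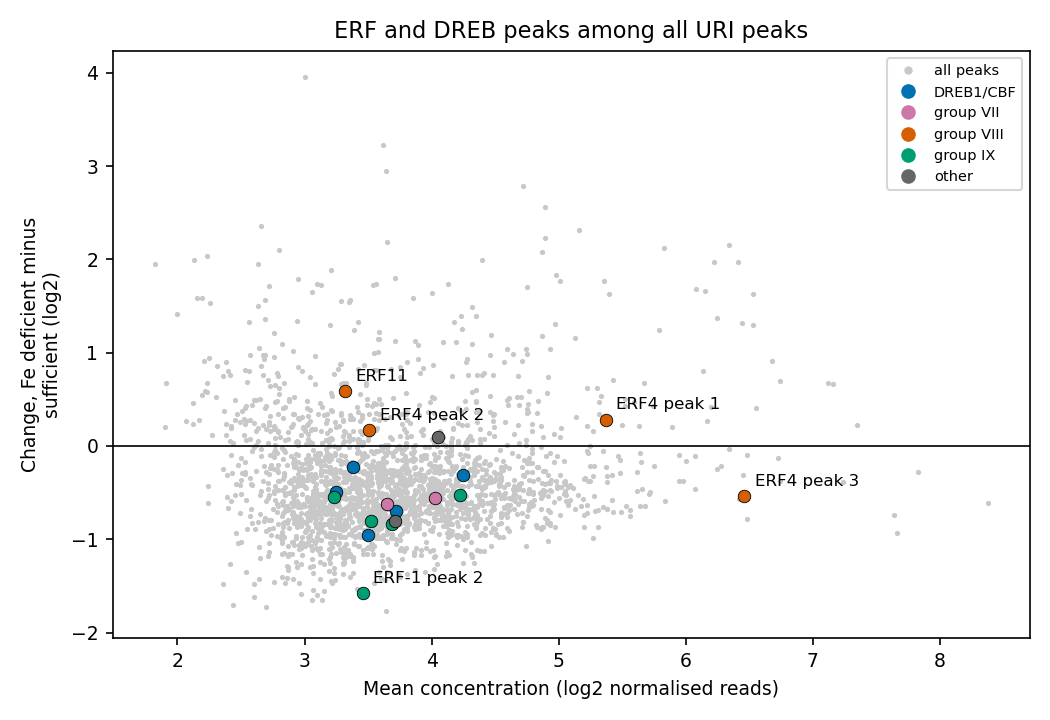
Each point is a peak, with mean concentration (log2 of normalised reads) on the horizontal axis and log2 change between Fe conditions on the vertical axis. All 2366 peaks are grey and the 18 member peaks are coloured by gene class. Most member peaks lie inside the grey cloud below 0, ERF4 peak 3 lies far to the right and ERF-1 peak 2 at its lower edge.

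Genes that act with the members were bound in part. A peak lay near 11.8% of all protein-coding genes, and no share of the lists below was tested against it. The lists were chosen with earlier results known. Of 13 ethylene signalling genes, 6 had a peak, and the strongest lay near the receptor gene EIN4, with 30.1 reads under Fe sufficiency and 15.7 under deficiency in the authors' deposited table (change -0.94, p = 0.0134, FDR 0.197). EBF2, whose protein targets the ethylene regulator EIN3 for degradation, had 15.3 and 7.31 reads in the authors' deposited table (change -1.08, p = 0.0366, not adjusted there), EIL3 a change of 0.04 and the receptor gene ERS2 one of 0.54. EIN2, EIN3, EIL1 and ETR1 had no peak. Of 12 ethylene synthesis genes 3 had a peak, namely ACS2 (change -0.06), ACO1 (change -1.19, p = 0.0201, FDR 0.229) and ACS7 (change -0.94, p = 0.0612) in the authors' deposited table. Of these peaks, 1 of the 6 for signalling and 2 of the 3 for synthesis entered the deposited adjustment. None of those passed an FDR of 0.05, and the others could not be judged by it.

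Of 13 genes of the cold response and of CBF regulation, 6 had a peak, beside 11.8% of all protein-coding genes. They had 5 peaks between them since KIN1 and KIN2 share 1. ZAT12, a zinc finger gene of cold and oxidative stress, had the strongest, with 51.3 reads under Fe sufficiency and 32.2 under deficiency in the authors' deposited table (change -0.67, p = 0.0546, FDR 0.301). COR47, a dehydrin gene, had a change of -0.40 and GOLS3, a galactinol synthase gene, one of -0.49, while the peak of KIN1 and KIN2 had 0.83 (p = 0.409) in the authors' deposited table. ICE1, CAMTA3, COR15A and RD29A had no peak. Of 9 hypoxia genes 2 had a peak, again beside 11.8% of all protein-coding genes, with 3 peaks in all. LBD41 held 63.1 and 83.9 reads at its stronger peak in the authors' deposited table (change 0.42, p = 0.116, FDR 0.354), which was higher relative to the median peak (0.88, FDR 0.0232). PCO1, whose protein marks group VII ERF proteins for degradation, held 53.4 and 32.7 reads in the authors' deposited table (change -0.71, p = 0.0353, FDR 0.266). All 3 hypoxia peaks and 3 of the 5 cold peaks entered the deposited adjustment. Apart from LBD41 relative to the median peak, none of these passed an FDR of 0.05.

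In the wider AP2/ERF family, 10 of 31 further genes had a peak (32.3%), beside 11.8% of all protein-coding genes. They had 13 peaks with a median change of -0.45 and a range from -1.12 to 0.84. Of these peaks 10 were lower under Fe deficiency and 3 higher. The strongest by concentration were AP2, a floral regulator, with 40.8 reads under Fe sufficiency and 26.5 under deficiency in the authors' deposited table (change -0.62, FDR 0.317), RAV1 with 22.0 and 19.2 (change -0.20, FDR 0.676), DRN with 21.9 and 16.2 (change -0.43, FDR 0.505) and SMZ with 19.2 and 13.4 (change -0.51, FDR 0.42). The peaks of AP2 and DRN did not overlap those genes. Of the 13 peaks 9 entered the deposited adjustment, and none of these passed an FDR of 0.05.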

How the data were processed

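URI ChIP-seq libraries were aligned to TAIR10 and summarised by the authors. Per the submitters' processing notes, the tools were DiffBind and MACS2 (versions not stated), bedtools 2.26.0, Bowtie 1.2.2, Trimmomatic 0.33, Picard 2.4.1 and SAMtools 1.3.1. The sources used here give neither settings nor the normalisation, nor how IgG libraries entered. The deposited table holds log2 concentrations per Fe condition, a log2 change with sufficiency first (its sign was reversed here), a p-value and an FDR. The log2 scale was read from the values: the mean concentration matched the log2 of the mean of both conditions within 0.0093. Where the deposited FDR was 1 (1055 peaks, concentrations up to 3.52), peaks were taken as not adjusted. For the other 1311 it matched a Benjamini-Hochberg adjustment of the deposited p-values within 0.489%.

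Gene names and neighbours came from an NCBI RefSeq table (GCF_000001735.4, TAIR10.1). To check that both share a coordinate frame, peaks were shifted in steps of 100 bp; midpoints fell in genes least often unshifted (19.4%). The standard error of a change is its size divided by the normal quantile of the deposited p-value, and for changes under 0.2 the median over 101 peaks of like concentration. Recentring subtracts the median change of all peaks, and adjustment again covers 1311 peaks. The overlaps were tested on planted peaks and the error on simulated data. The simulated p-values came from the same normal formula, so this run checks the computation only. It cannot show that the deposited p-values follow that formula. The members, lists and naming rule (every member, and up to 4 bound genes of each other list) were chosen with earlier results of these data known. List genes named as having no peak were chosen after their values were seen. Of the listed names, ACO3 and HUP7 matched no gene, HRE1, HRE2 and TOE1 were already members, and WIN1 was taken as AT1G15360. Python 3.11.15, pandas 2.3.3, SciPy 1.17.1 and matplotlib 3.10.9 were used. No sequences were used, so motifs were not searched.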

Additional observations from a re-analysis of the deposited data

How the results depend on the processing

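Counts were compared by their ratio, with 1.5 as the limit, and the median change by its distance, with 0.485 (the median standard error of a member peak) as the limit. Counting only peaks that overlap the gene itself left 9 members and 11 peaks in place of 14 and 18, and dropped RAP2.12, RAP2.2, RAP2.4, RAP2.7 and ERF2. Windows from 500 bp to 3000 bp gave 10 to 18 members, and keeping only peaks at or above the median concentration left 10. Requiring the midpoint of the peak to lie in the widened gene kept 14 members. By that setting the main ERF4 peak no longer belonged to ERF4. Assigning each peak to its nearest gene gave 13 members. The peaks counted for RAP2.12, RAP2.2 and RAP2.7 then went to other genes. The 13 therefore also rest on peaks more than 1500 bp from a member. Adding synonyms gave 15. No alternative gave a member peak past the threshold in either direction. Recentring adds 0.46 to every change, which is under that limit by construction: the median went from -0.545 to -0.085 and the main ERF4 peak from -0.54 to -0.08, and CBF1 (0.15) and CBF4 (0.24) turned sign. The other alternatives for the median gave -0.56 to -0.52. No paired analysis was possible because the deposited table holds no value per library, and for the same reason no library could be left out. The planned searches for the G-box, E-box, GCC box and dehydration-responsive element in promoters were not run. The planned search for the EAR repression motif in proteins was not run either. Unknown depth and 3 libraries per condition limit what a single weak peak can show.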

Other observations

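A further 7 genes fit the naming rule only by a synonym, and 1 of them had a peak, beside 11.8% of all protein-coding genes. That gene, AT1G22190, shares the name RAP2.4 with AT1G78080, and its peak (chromosome 1, 7834064 to 7836145) was stronger than that of any member but ERF4, at 41.6 reads (sufficient Fe) and 48.8 reads (deficiency) in the authors' deposited table (change 0.23, p = 0.518, FDR 0.655). ERF72, named EBP in the gene table and described with ERF4 as a repressor of the Fe-deficiency response, had no peak.

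The genes for DREB and EAR motif proteins, which join a DREB-type domain to a repression motif, were looked at after their values were seen. Of 5 such genes 2 had peaks, beside 11.8% of all protein-coding genes with a peak. Each of these 2 genes had 2 peaks, beside 1.38% of all protein-coding genes with 2 or more. CEJ1 held 28.0 reads (sufficient Fe) and 15.9 (deficiency) at its stronger peak in the authors' deposited table (chromosome 3, 18632556 to 18633891, change -0.82, p = 0.0425, FDR 0.268), 655 bp from the gene. DEAR2 held 19.97 and 12.6 reads in the authors' deposited table (chromosome 5, 26809784 to 26810562, change -0.65, p = 0.126, FDR 0.365). RAP2.9, RAP2.10 and DEAR3 had no peak.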
